A study of Mus musculus with 8 samples.

Results

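Dense stretches of distal open chromatin were defined in the control leukaemic progenitors of a mouse acute myeloid leukaemia (AML) study, and were then followed into progenitors that lack DEK or carry a phosphosite mutant of it. The 8 deposited peak lists were merged wherever peaks overlapped by at least 1 bp on chromosomes 1 to 19 and X, which gave 138385 union regions. Of these, 37770 were held by all 3 control libraries, and 27350 of the 37770 (72.4%) had their strongest summit more than 1 kb from either end of any protein-coding gene. Neighbouring distal regions 12500 bp or less apart were joined into 17046 stretches, and the stretches with 6 or more regions were kept. This left 276 dense stretches with 2013 regions, 7.36% of the distal control-held regions; the other 25337 are called other distal regions here. The regions were chosen by peak presence in the 3 control libraries, so the presence of these regions in the controls is not a finding.

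All 8 libraries were ATAC-seq libraries, in which a transposase cuts accessible DNA, made from about 5000 L-GMPs each. L-GMPs are leukaemic granulocyte-macrophage progenitors, sorted from mouse bone marrow by surface markers, and the labels call them leukaemia stem cells. Every mouse had AML driven by MLL-AF9, a fusion oncoprotein. The 3 KO libraries were KO 1 and KO 2, of genotype Dek fl/fl with Mx1-Cre, and KO 3, Dek fl/fl with Tie2-Cre. The 2 libraries named 4S-A carried Dek-Ser306A/Ser308A/Ser311A/Ser312A, in which 4 serines of DEK are replaced by alanine. The 3 control libraries were FL 1 and FL 2, Dek fl/fl with no Cre named, and FL 3, labelled FL but Dek+/+. Mx1-Cre is an interferon-inducible transgene active in blood cells and other tissues, and Tie2-Cre acts in endothelial and haematopoietic cells from development on. A Cre is named for the KO libraries only. KO 1, KO 2, FL 1 and FL 2, which share a protocol text in the labels, are called set A here, and KO 3, 4S-A 1, 4S-A 2 and FL 3, which share another, are called set B; FL 3 is the single control of set B. The labels do not say whether libraries of a group came from separate mice, so any spread between them may be technical.

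DEK is a chromatin-bound nuclear protein that binds DNA and histones. Enhancers are regulatory DNA elements away from gene starts, and many of them close together are often found near genes that define a cell type, where they are known as super-enhancers or stretch enhancers. Accessibility does not show enhancer activity, and the name of a nearest gene does not show that it is the target.

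The labelled cell type was checked on gene-end regions of marker genes. A region within 1 kb of a gene end was held by all 8 libraries for 14 of 17 myeloid progenitor markers, Mpo, Cebpa, Spi1 and Kit among them. Fcgr3 lacked such a region in KO 1, and Prtn3 and Csf3r lacked it in every library. All 8 libraries also held one for 7 of 30 markers of erythroid, megakaryocytic, lymphoid, endothelial and stromal cells. These 7 were Epor, Pf4, Ebf1, the T-cell markers Cd3d, Tcf7 and Bcl11b, and the endothelial marker Kdr. By −log10 q, the Cd3d region ranked higher than that of Mpo in every list. How many of all genes had such a region was not counted, so these counts do not settle the cell type. None of the 47 markers was the nearest gene of a dense-stretch region. The lists held 56245, 74026 and 93041 peaks in KO 1, KO 2 and KO 3, 104605 and 94725 in the 4S-A libraries, and 51510, 54887 and 91586 in FL 1, FL 2 and FL 3. Every list of set B was longer than every list of set A, whatever the DEK genotype, and no read depth is in the lists.

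Of the 2013 regions, 68 (3.38%) had their strongest summit inside a RefSeq promoter window, against 4.75% of the other distal regions. A protein-coding gene's window held 44 of them (2.19%, against 3.34%), at starts inside a longer gene that the distance rule does not see. The windows of 6 such starts, picked after their values were seen among those that hold a motif marked below, are shown to place these letters at a start; each lies under a dense-stretch summit held by all 8 libraries. They are the 250 bases before the start, on the strand of the gene, from RefSeq on GRCm38.p6 (mm10). Capitals mark GAGGAAGT, a core of the sites of the ETS factor PU.1, in Aim2, Dgkz and Fgd3; TGANTCA, bound by AP-1, in Elf1; and TGTGGTT, bound by RUNX factors, or its reverse complement, in Gpr132 and Srgn.
Aim2, chr1:173420354-173420603, plus strand: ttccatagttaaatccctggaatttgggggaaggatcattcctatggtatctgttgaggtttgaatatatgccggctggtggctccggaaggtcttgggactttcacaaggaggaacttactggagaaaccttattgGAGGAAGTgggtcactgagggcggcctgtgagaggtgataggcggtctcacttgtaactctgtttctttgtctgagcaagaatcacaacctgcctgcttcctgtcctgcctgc
Dgkz, chr2:91950349-91950598, minus strand: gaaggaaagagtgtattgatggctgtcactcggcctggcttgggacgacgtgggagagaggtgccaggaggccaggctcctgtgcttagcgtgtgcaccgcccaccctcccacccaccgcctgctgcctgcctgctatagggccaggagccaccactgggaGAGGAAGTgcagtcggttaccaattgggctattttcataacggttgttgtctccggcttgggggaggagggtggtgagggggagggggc
Fgd3, chr13:49309209-49309458, minus strand: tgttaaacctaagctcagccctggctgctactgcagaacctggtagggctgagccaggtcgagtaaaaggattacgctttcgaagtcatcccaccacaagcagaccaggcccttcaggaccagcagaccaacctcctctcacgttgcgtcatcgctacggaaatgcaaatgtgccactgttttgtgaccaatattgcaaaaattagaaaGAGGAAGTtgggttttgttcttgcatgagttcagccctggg
Elf1, chr14:79515424-79515673, plus strand: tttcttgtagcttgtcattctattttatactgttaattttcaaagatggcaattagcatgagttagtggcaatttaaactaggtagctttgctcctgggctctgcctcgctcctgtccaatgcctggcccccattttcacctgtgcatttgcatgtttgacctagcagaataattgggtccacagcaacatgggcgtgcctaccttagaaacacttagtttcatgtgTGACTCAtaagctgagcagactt
Gpr132, chr12:112860917-112861166, minus strand: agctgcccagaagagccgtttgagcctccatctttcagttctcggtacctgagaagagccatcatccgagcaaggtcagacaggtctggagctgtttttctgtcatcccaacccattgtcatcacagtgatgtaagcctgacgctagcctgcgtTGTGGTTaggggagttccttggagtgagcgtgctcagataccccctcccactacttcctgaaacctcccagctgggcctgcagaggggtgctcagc
Srgn, chr10:62507758-62508007, minus strand: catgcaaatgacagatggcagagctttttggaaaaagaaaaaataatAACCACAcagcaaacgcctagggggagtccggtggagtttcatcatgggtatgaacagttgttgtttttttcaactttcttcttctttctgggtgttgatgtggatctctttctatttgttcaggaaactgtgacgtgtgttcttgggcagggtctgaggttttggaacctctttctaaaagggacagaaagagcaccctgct
Searched on both strands, GAGGAAGT was in 6 of the 77 windows under dense-stretch summits (7.79%), against 2.46% of all 32619 windows. TGTGGTT was in 7 (9.09%, against 4.41%) and TGANTCA in 9 (11.7%, against 6.78%). AGATAA, the core bound by GATA factors, was in 5 (6.49%, against 10.0%). The E-box CANNTG was in 57 (74.0%, against 66.2%). The C/EBP letters TTGCGCAA and TTGCNNCAA were in none of the 77, against 0.166% and 1.75% of all windows. The 32619 windows are those of all RefSeq starts on these chromosomes, with or without a peak. Windows under the summits of other distal regions were not searched, so these shares cannot be tied to dense stretches. Some of the 77 windows belong to 1 region or overlap, and a match of letters is a description only. The peak at the Aim2 start, near the gene of a cytosolic DNA sensor, had percentiles of 86.5, 91.4 and 94.8 in KO 1, KO 2 and KO 3, 96.6 and 94.6 in the 4S-A libraries, and 88.0, 91.2 and 95.5 in FL 1, FL 2 and FL 3. A percentile here is the rank of a peak's −log10 q among all peaks of its own list, with 100 for the strongest, and it compares peaks within a list only. It shifts with the length of the list, so percentiles of different libraries are not on 1 scale.

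Of the 1005 microRNA hairpins in the RefSeq table on these chromosomes, 13 lay within 8 of the stretches. The mature forms best known in myeloid cells and leukaemia are shown with the seed, bases 2 to 8, in capitals. Mir223 (chrX:96242817-96242926, plus strand), a microRNA of granulocytes, lay in the stretch nearest to Vsig4. Mir21a (chr11:86584067-86584158, minus strand), a widely studied oncogenic microRNA, lay in the Vmp1 stretch. Mir23a (chr8:84208518-84208592), Mir27a (chr8:84208672-84208758) and Mir24-2 (chr8:84208815-84208921), a cluster on the plus strand, lay in the stretch nearest to Zswim4.
mmu-miR-223-3p: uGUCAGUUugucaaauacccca
mmu-miR-21a-5p: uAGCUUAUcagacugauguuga
mmu-miR-23a-3p: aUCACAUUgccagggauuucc
mmu-miR-27a-3p: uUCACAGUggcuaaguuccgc
mmu-miR-24-3p: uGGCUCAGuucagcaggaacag
No seed was shared among these 5. The summit of the nearest dense-stretch region was 1937 bp from the Mir223 hairpin, 1714 bp from Mir21a and 573 bp from Mir23a. The region nearest to Mir21a had no peak in KO 3 or in either 4S-A library. It was weak in the controls, at 14.3, 31.2 and 1.26 in FL 1, FL 2 and FL 3.

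The 276 stretches spanned 17065 to 83711 bp, with a median of 39278 bp, and covered 11.1 Mb in all. A stretch held a median of 7 regions and at most 14. The median gap between neighbouring summit-bearing regions was 5065 bp, and the density ran from 1.11 to 4.10 regions per 10 kb with a median of 1.83. The threshold fell inside a continuous series of sizes, with 250 stretches of 5 regions just outside and 119 stretches of 6 just inside. The median mean control percentile was 64.5 for regions of stretches of 6 and 62.6 for those of 5. The share of regions kept in KO 1, KO 2 and KO 3 was 90.6%, 97.5% and 98.7% for stretches of 6, against 92.3%, 98.6% and 99.0% for stretches of 5. In 4S-A 1 and 4S-A 2 it was 97.1% and 96.5%, against 98.5% and 97.8%. Chromosome 11 carried the most stretches, 25.

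**Figure D1:**
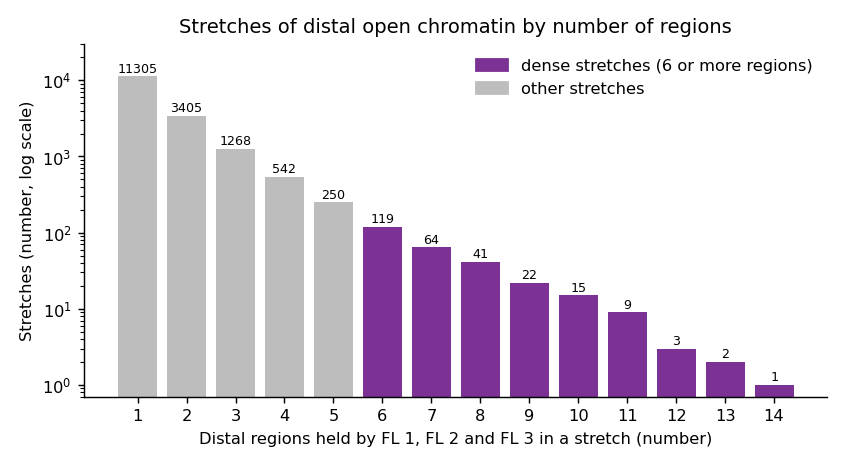
Number of stretches (vertical axis, log scale) against the number of distal control-held regions in a stretch (horizontal axis); stretches of 6 or more are the dense ones. Counts fell from 11305 single regions to 119 stretches of 6 and 1 of 14, with no break at the threshold.

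Dense-stretch regions were placed much like other distal regions. Inside the span of a protein-coding gene lay 50.7% of them, against 54.2% of the other distal regions, and the median distance to a gene end was 18145 bp against 15409 bp. Exons and introns were not separated, since the annotation used has gene spans only. The median width was 701 bp against 735 bp. No protein-coding gene lay within 100 kb of 86 regions (4.27%), against 5.73% of the other distal regions, and 8 stretches had no such gene at any region. A single gene contained all regions of 76 stretches, and 129 stretches contained a gene end in their span. The regions had 398 distinct nearest genes, 1.84% of the 21631 protein-coding genes and 4.15% of the 9587 nearest to any distal control-held region. Etv6, Prkch, Arid1b and Tomm20 each led 2 stretches.

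The stretches with the most regions lay near genes of varied roles. The longest series, 14 regions over 78260 bp, lay beside Zfp36l2 (chr17:84089547-84167806), whose product binds and destabilises mRNAs. The next had 13 regions each: one inside Zmiz1, which encodes a transcriptional co-regulator, and one with 8 regions nearest to Chst11, a chondroitin sulfotransferase gene, and 5 nearest to Txnrd1, a thioredoxin reductase gene. Of the stretches of 12 regions, one lay inside Irak2, a gene of interleukin-1 and Toll-like receptor signalling. Another had 7 regions nearest to Fosb, an AP-1 subunit gene, and 5 nearest to Ercc1, a DNA repair gene. The last of this size, at chr9:2999975-3038327, had no gene within 100 kb. Of the stretches of 11, those at Bahcc1, Lrrfip1 and Tex14 had that gene as the nearest of every region. In the others the gene with most regions had 9 at Sema4b, Arhgap27, Dusp1 and Ift57, the last shared with Cd47, whose product is the signal that restrains phagocytosis, and 6 at Neurl3. One more had 7 regions nearest to the predicted gene 1600014C23Rik and 4 nearest to Mrpl14, a mitochondrial ribosomal protein gene. The nearest genes of the 5 longest of those with 10 were Pdhx and Cd44, Myl4 and Itgb3, Cmip, Rubcnl and Lrrc63, and Erg. All regions of the Zmiz1, Fosb, Mrpl14, Bahcc1, Tex14, Pdhx and Cmip stretches were held by all 8 libraries. The Zfp36l2 stretch had 13, 14 and 14 of its 14 regions in KO 1, KO 2 and KO 3, with 14 and 13 in 4S-A, with median percentiles of 73.5, 73.6 and 71.1 in KO, 72.5 and 72.3 in 4S-A, and 59.0, 56.7 and 71.9 in FL 1, FL 2 and FL 3. FL 1 and FL 2 stood lowest there, and FL 3 lay among the KO and 4S-A values. Medians over all dense-stretch regions had the same order, so it was not particular to this stretch. They were 60.2 and 62.6 in FL 1 and FL 2 and 73.5 in FL 3. FL 1 and FL 2 also had the shortest lists.

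**Figure D2:**
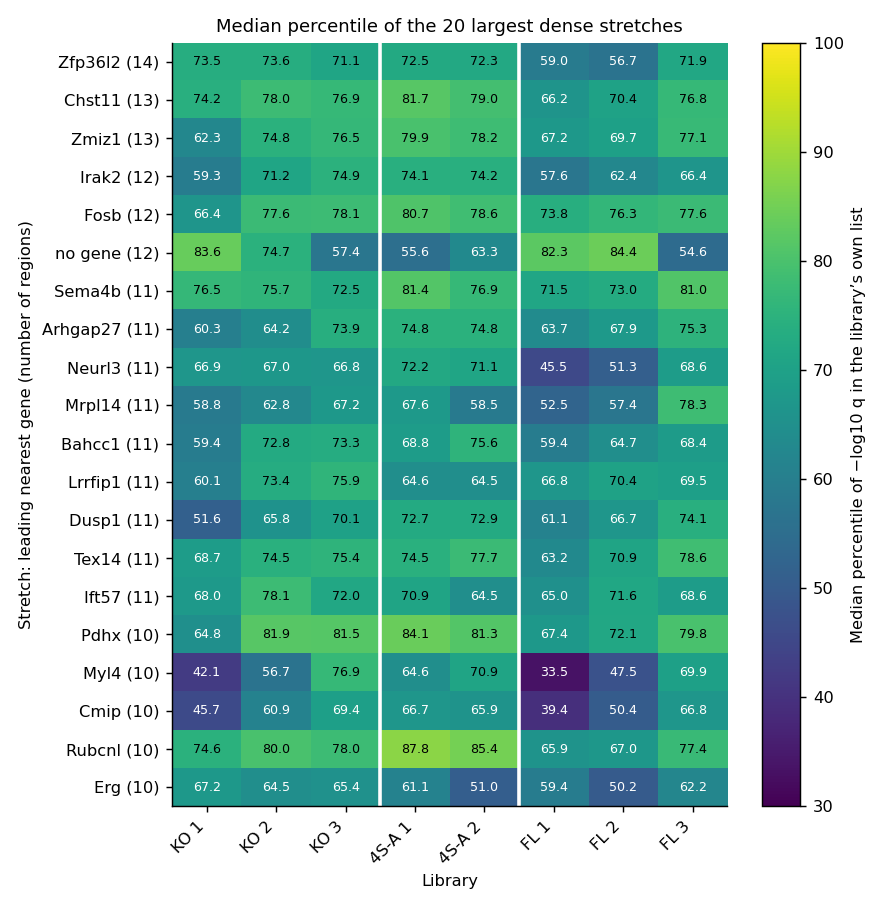
Median percentile of −log10 q within each library's list (colour and number) for the 20 stretches with the most regions (rows, named by the nearest gene with most regions, predicted genes left out, with the number of regions) in KO 1 to 3, 4S-A 1 and 2 and FL 1 to 3 (columns). The row without a gene is high in KO 1, KO 2, FL 1 and FL 2, at 83.6, 74.7, 82.3 and 84.4, and low in KO 3, both 4S-A libraries and FL 3, at 57.4, 55.6, 63.3 and 54.6.

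The stretch at chr9:2999975-3038327 stood out among these 20 by its order of libraries. Its median percentile was 83.6, 74.7 and 57.4 in KO 1, KO 2 and KO 3, 55.6 and 63.3 in the 4S-A libraries, and 82.3, 84.4 and 54.6 in FL 1, FL 2 and FL 3. Each library of set A was above each library of set B, whatever the DEK genotype. It lies at the start of its chromosome, and its sequence and repeats were not examined here.

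By control strength, a description of values the rule partly used, the strongest stretches lay near Ptma, a prothymosin gene, with a mean control percentile of 83.6, near Cebpb (82.7), in a stretch where 1 of 6 regions had Thbs1, the thrombospondin gene, as its nearest gene and 5 had no gene within 100 kb (81.3), at Dgkz, a diacylglycerol kinase gene (80.9), and at Itpkb, an inositol trisphosphate kinase gene (79.9). The weakest had a mean of 41.9, and the median stretch 62.2. Regions of 1 stretch were hardly more alike in strength than regions of different stretches: the intraclass correlation of percentiles by stretch was between 0.01 and 0.05 in the 8 libraries.

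Genes of the myeloid and leukaemic programmes were compared with the stretches through 19 gene lists with 347 distinct genes, of which 37 were nearest to a dense-stretch region. Of 28 myeloid transcription factors, 4 were: Rara, the retinoic acid receptor gene, with 9 regions, the orphan receptor gene Nr4a1 with 8, Cebpb, a C/EBP factor gene of granulocyte and macrophage differentiation, with 7, and Klf2 with 2. Of 27 stem and progenitor factors, 5 were: Etv6 with 14 regions in 2 stretches, Erg with 10, Elf1 with 7, and Runx1 and Runx3 with 6 each. None of 19 Hox, Meis and Pbx genes was nearest to one. Hoxa9, a main target of MLL fusions, had 2 distal control-held regions, in a stretch of 4. Meis1 had 6 and Myc had 5, in stretches of at most 2 regions. Pbx3 had 3, and Dek itself had 1, all single. Of 25 genes of the MLL-AF9 programme, 4 had 6 regions each: Mef2c, a MADS-box transcription factor gene; Cdk6, a cell cycle kinase gene; Id2, an inhibitor of basic helix-loop-helix factors; and Mcl1, a survival gene.

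The Cebpb stretch (chr2:167740561-167778276) was kept whole in all 5 KO and 4S-A libraries. Its median percentile was 80.2, 87.1 and 79.4 in KO, 86.2 and 81.5 in 4S-A, and 72.4, 80.9 and 83.5 in FL 1, FL 2 and FL 3, and the groups overlapped. The Runx1 stretch (chr16:92861666-92884406), which lies outside that gene, kept 5, 5 and 6 of 6 regions in KO 1, KO 2 and KO 3, with 6 and 5 in 4S-A. Its median percentile was 75.1, 84.7 and 88.5 in KO, 85.9 and 88.0 in 4S-A, and 74.4, 77.8 and 83.1 in FL. KO and FL overlapped, and both 4S-A values lay above FL 3. Both Etv6 stretches and the Erg stretch lay inside their genes and kept all but 0 to 2 regions in each library.

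The cytoskeleton and adhesion list of leukocytes had the largest share, 8 of 26 genes (30.8%). Cd44, the hyaluronan receptor gene, had 11 regions; Lcp1, which encodes an actin-bundling protein, and Pstpip1, an actin-associated adaptor, had 10 each; Dock10 had 7 and Dock2 6. Itgb7 had 3, and Coro1a and Gsn had 2 each. The Lcp1 stretch kept 7, 10 and 10 of 10 regions in KO 1, KO 2 and KO 3 and 10 and 9 in 4S-A. Of 27 feedback regulators of signalling, 3 were nearest: Dusp1, a MAP kinase phosphatase gene, with 9 regions, and Inpp5d (SHIP1) and Socs3 with 7 each. Of 20 survival and cell cycle genes there were 5, with Cdkn1a (p21) at 7 regions and Ccnd3 at 6. Among 22 monocyte and macrophage genes, the chemokine receptor gene Ccr1 had 7 and F13a1 and Nlrp3 6 each. Among the granule and neutrophil genes, Ltf, the lactoferrin gene, had 2. Il17ra (6) and Il10ra (3) were the 2 of 24 cytokine receptor genes. Of the lists of other lineages, nearest to a dense-stretch region were 0 of 13 erythroid, 0 of 13 B-cell, 0 of 16 T- and NK-cell, 0 of 11 mast-cell and 0 of 15 endothelial and stromal genes, 2 of 12 megakaryocyte genes (Itgb3 and Nbeal2) and 1 of 14 dendritic genes, Id2, which also stands in the MLL-AF9 list. Among 26 genes of chromatin regulators and DEK partners there was none, and among 12 housekeeping genes 1, Actb. These shares are read beside the 1.84% of all protein-coding genes and 4.15% of genes near any distal control-held region, with no test.

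The first question put to KO and 4S-A was how much of each stretch was kept. KO 1, KO 2 and KO 3 kept 90.6%, 98.1% and 98.7% of the 2013 regions, against 90.2%, 97.6% and 98.3% of the other distal regions. 4S-A 1 and 4S-A 2 kept 96.9% and 95.9%, against 96.4% and 95.1%. The means were 95.8% ± 4.53 (SD, n = 3) in KO and 96.4% ± 0.703 (SD, n = 2) in 4S-A, with 95.4% and 95.7% for the other distal regions. The exact 95% binomial interval of KO 1, the lowest library, was 89.2 to 91.8%; such intervals cover counting error only. The margin over other distal regions of the same library was small but positive in each of the 5 libraries, between 0.386 and 0.802 percentage points. Across the KO libraries this margin ran only from 0.386 to 0.443, although their kept shares differed far more. The margin was not tested, and it did not hold throughout. Stretches of 5 regions, counted among the others, kept more than dense ones in each library: 92.3%, 98.6% and 99.0% in KO, 98.5% and 97.8% in 4S-A. With FL 3 left out of the rule, KO 3 kept 96.4%, against 96.8% of other distal regions, while the other KO and 4S-A libraries stayed above. In KO 1 the margin was reversed among regions weak in the controls, as given below. KO 1 had the shortest list of the 5.

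Loss went with weakness in the controls. Distal regions were divided into 4 groups of like size by mean FL percentile. In the weakest (mean percentile 2.69 to 45.5), KO 1 kept 68.8% of dense-stretch regions and 72.2% of others. KO 2 kept 92.2% and 92.3%, KO 3 94.8% and 94.5%, 4S-A 1 90.1% and 89.8%, and 4S-A 2 87.4% and 86.3%. In the strongest group each of the 5 libraries kept 99.8% or more of both.

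Whole stretches were kept in 135, 238 and 252 cases of 276 in KO 1, KO 2 and KO 3 and in 221 and 208 in 4S-A 1 and 4S-A 2. All 3 KO libraries kept 125 stretches whole (45.3%), both 4S-A libraries 200 (72.5%), and all 5 libraries 103 (37.3%). Setting KO 1 aside, 175 stretches were whole in the other 4, and 139 regions were missing from KO 1 only. At the level of regions, 1746 (86.7%) were held by all 8 libraries, against 85.2% of the other distal regions.

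A control left out of the rule gives a background for these shares; this comparison was added after the data had been seen. With the rule on FL 2 and FL 3 alone, which gave 483 stretches and 3618 regions, KO 1, KO 2 and KO 3 kept 85.7%, 95.1% and 98.0%, 4S-A 1 and 4S-A 2 kept 96.0% and 94.7%, and the left-out FL 1 kept 85.3%. With FL 2 left out, the same libraries kept 85.1%, 95.6%, 98.3%, 96.3% and 94.9%, and FL 2 kept 85.9%. With FL 3 left out, they kept 89.4%, 97.6%, 96.4%, 95.3% and 94.1%, and FL 3 kept 96.6%. So the left-out FL 1 lay just below KO 1, the lowest KO library, and FL 2 and FL 3 lay inside the KO range. FL 1 and FL 2 lay below both 4S-A libraries and FL 3 above both. List length moved with this: FL 1 and FL 2 have the shortest lists. With each list trimmed to its 51510 strongest peaks, both 4S-A libraries lay below the left-out control each time. They kept 89.1% and 89.2%, against 91.4% in FL 1; 89.0% and 89.8%, against 90.9% in FL 2; and 81.5% and 81.7%, against 86.3% in FL 3. KO libraries lay on both sides of FL 1 and FL 2, and at FL 3 they kept 88.4%, 92.5% and 86.5%, all above it. In other distal regions, trimmed alike, both 4S-A libraries also lay below each left-out control, so that order was not particular to dense stretches. They kept 86.1% and 85.6%, against 87.1% in FL 1, and 86.5% and 86.0%, against 87.8% in FL 2. With FL 3 left out, KO 1, KO 2 and KO 3 kept 87.6%, 91.0% and 85.4% of other distal regions. The 4S-A libraries kept 80.4% and 80.1%, and FL 3 kept 88.2%. There KO 1, KO 3 and both 4S-A libraries lay below FL 3, so at KO 1 and KO 3 the order was not that of the dense-stretch regions.

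**Figure D3:**
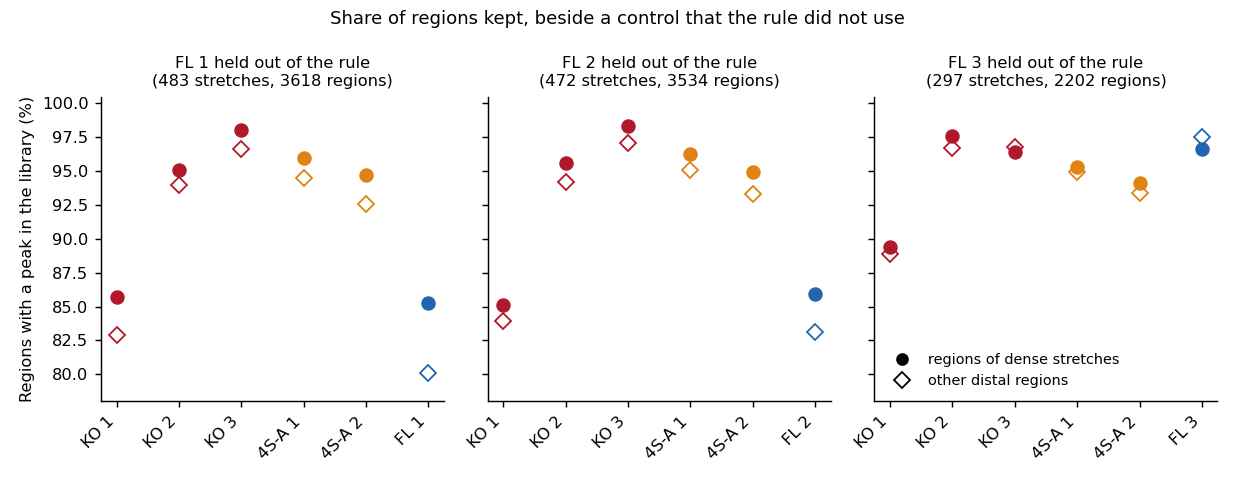
Percent of regions with a peak (vertical axis, not from 0) in each KO and 4S-A library and in the FL library left out of the rule, for regions of dense stretches (filled circles) and other distal regions (open diamonds), 1 panel per left-out library, lists as deposited. The left-out FL 1 and FL 2, at 85.3% and 85.9%, sit beside KO 1, and the left-out FL 3, at 96.6%, sits above both 4S-A libraries.

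Missing from all 3 KO libraries were 6 regions of dense stretches (0.298%), against 0.214% of all 37770 control-held regions and 0.260% of the other distal regions. They lay near Sub1, a transcriptional coactivator gene, Tmem104, Noct, a circadian phosphatase gene, Ece1, which encodes endothelin-converting enzyme, Ston2 and Mef2c. All 6 were weak in the controls, with mean percentiles from 7.07 to 37.5. The count depends on single libraries: it was 32 without KO 3, 29 without FL 1, 13 without FL 3, 12 without KO 2 and 11 without FL 2, and the background moved with it, to between 0.559% and 1.46%. The regions near Sub1 (chr15:12026129-12026376), Ece1 (chr4:137888152-137888911) and Mef2c (chr13:83565712-83566107) were missing from both 4S-A libraries as well. Their FL 1, FL 2 and FL 3 percentiles were 52.5, 31.2 and 28.8 near Sub1, 23.9, 23.6 and 23.5 in Ece1, and 14.7, 1.05 and 5.5 in Mef2c. The region near Noct (chr3:51223014-51223511) was present in 4S-A at 15.5 and 21.3, and in FL at 37.9, 29.2 and 8.77.

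Missing from both 4S-A libraries were 51 regions (2.53%) in 44 stretches, against 2.26% of all control-held regions and 2.95% of the other distal regions. Their median mean control percentile was 37.0, against 63.9 for all dense-stretch regions, and the highest was 65.0. All 3 KO libraries held 28 of the 51, and KO 3, also of set B, held 35. The count was 111 without FL 1, 104 without FL 2, 90 without FL 3 and 83 without 4S-A 1, where the share over all control-held regions was between 3.05% and 3.80%. At equal list length it was 93 of 1302, where that share was 7.01%. The region strongest in the controls lay near Nedd9, a scaffold gene of integrin signalling, at 11.3 and 61.9 in KO 1 and KO 2 and at 68.5, 69.0 and 57.5 in FL 1, FL 2 and FL 3; KO 3 also lacked it. Next was a region near Lrrk1, a kinase gene, at 38.9, 48.3 and 24.8 in KO and 78.8, 72.6 and 41.8 in FL. In Pik3ap1, which encodes an adaptor that activates PI3 kinase (BCAP), the region was at 62.1, 82.8 and 38.8 in KO and 69.9, 72.5 and 47.1 in FL. In Dock2 it was at 63.4, 72.8 and 30.2 in KO and 68.2, 66.4 and 40.0 in FL. The remaining 6 of the 10 strongest lay near Stoml1, Actb, Gpr132, Dnajb12, Prdm1 and Dapp1. A single stretch missed 3, at Cxxc5, a CXXC zinc-finger gene, which kept 6, 6 and 7 of 7 regions in KO and 4 and 4 in 4S-A. Dock10, Rasgrf1, Dnajb12, Pik3ap1 and the stretch at chr14:76747860-76764924 each missed 2.

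The stretches kept least by KO were led by Dock2 (chr11:34762146-34792239), with 3, 4 and 6 of 6 regions in KO 1, KO 2 and KO 3 and 5 in each 4S-A library. The first 5 regions lay inside the gene. Its outermost regions were the ones missing from both KO 1 and KO 2: the first was at 34.6 in KO 3, 29.3 and 24.9 in 4S-A, and 50.5, 36.6 and 19.3 in FL, and the last at 50.1 in KO 3, 76.5 and 65.4 in 4S-A, and 37.3, 26.0 and 39.6 in FL. The region missing from 4S-A, chr11:34773584-34773943, was another one. Gng12, a G protein subunit gene, kept 4, 7 and 6 of 7 in KO and 7 and 7 in 4S-A. Cdk6 kept 5, 6 and 4 of 6 in KO, with 4 and 5 in 4S-A, which made it the 1 stretch among the 8 lowest of both groups. Mapk3 (ERK1), Arhgap9 and Vsig4 each kept 4, 5 and 6 of 6 in KO, so that every loss fell in KO 1 and KO 2, of set A; in 4S-A, Mapk3 and Vsig4 kept all 6 and Arhgap9 kept 5 and 5. Tmem104 kept 4, 5 and 5 of 6 in KO and 6 and 5 in 4S-A. For 4S-A the lowest after Cxxc5 were the chr14 stretch (5 and 4 of 7), Rasgrf1 (4 and 4 of 6, against 6 of 6 in every KO library), Dock10 (5 and 5 of 7), Nlrp3 (5 and 4 of 6), the gene-free stretch at chr6:31159392-31220557 (9 and 5 of 9) and Pik3ap1 (7 and 7 of 9).

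**Figure D4:**
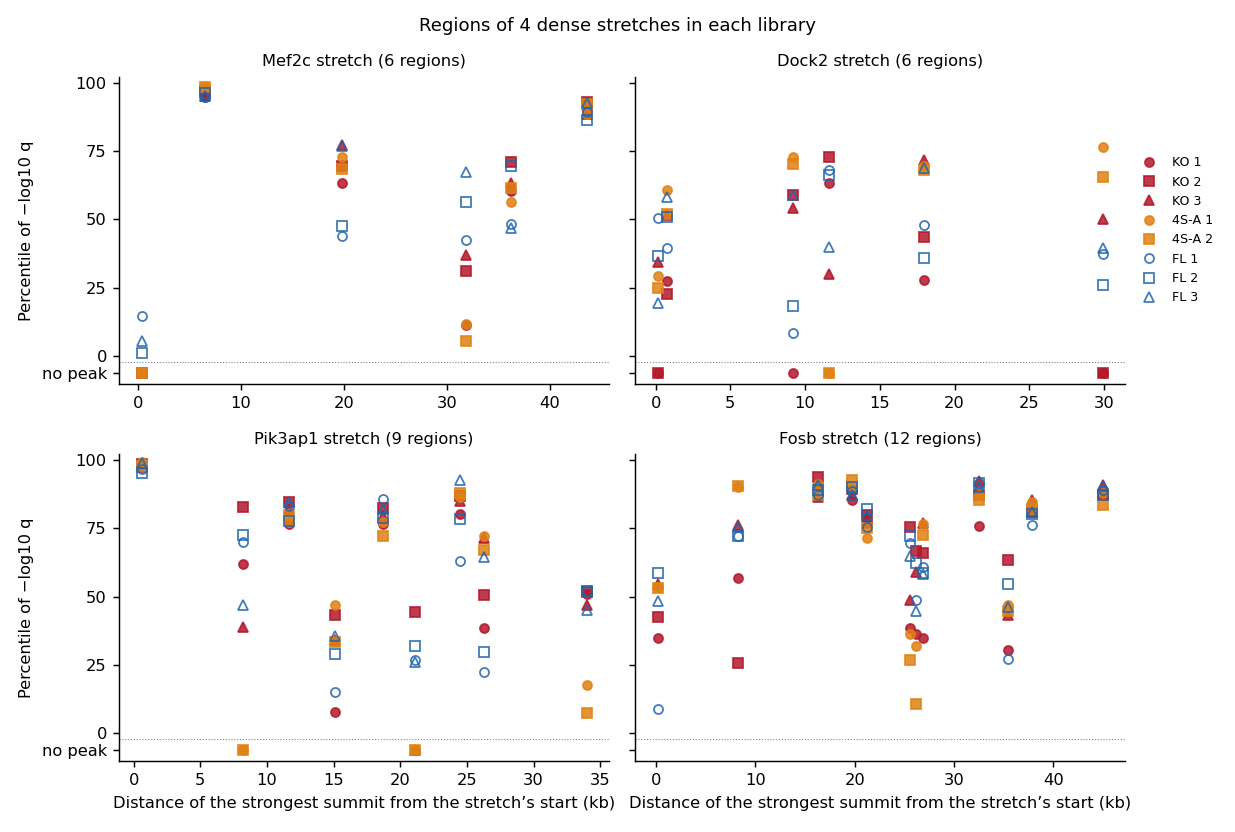
Percentile of −log10 q (vertical axis) of each region of the Mef2c, Dock2, Pik3ap1 and Fosb stretches against the distance of its strongest summit from the start of the stretch (horizontal axis, kb), with 1 symbol per library: filled for KO and 4S-A, open for FL, and on the lowest line where the library had no peak. In Mef2c the fourth region was at 11.5, 31.3 and 37.1 in KO and 11.8 and 5.60 in 4S-A, below the FL values of 42.6, 56.4 and 67.4, and every library had a peak at all Fosb regions.

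Within the stretch inside Mef2c (chr13:83565712-83609966), the regions differed in how their ranks compared between groups. Mef2c encodes a factor of the MLL-AF9 programme, and 5 of its 6 regions were held by all 8 libraries. The strongest, chr13:83571765-83572729, was at 94.9, 96.8 and 95.1 in KO, 98.3 and 98.5 in 4S-A, and 94.6, 96.2 and 95.2 in FL. The last, chr13:83608819-83609966, was at 90.0, 92.9 and 88.7 in KO, 88.7 and 92.0 in 4S-A, and 89.3, 86.3 and 92.6 in FL. KO and FL overlapped at both. The region between them at chr13:83597187-83598053 was at 11.5, 31.3 and 37.1 in KO, 11.8 and 5.60 in 4S-A, and 42.6, 56.4 and 67.4 in FL. There all KO and 4S-A values lay below all FL values. Its difference of normal scores, a rank difference defined in the next paragraph, was −1.28 (SE 0.17) for KO minus FL and −1.95 (SE 0.22) for 4S-A minus FL. The limma p adjusted over all regions was 0.280 and 0.0685, so neither passed the threshold of 0.05.

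Ranks were tested over all regions held by all 8 libraries, whether or not the rule took them. Dense-stretch regions that any KO or 4S-A library lacked could not enter this test, so its result does not cover them. In each library the 33321 regions held by all 8 libraries were ranked by −log10 q, and the ranks turned into normal scores were fitted with limma with the set, A or B, as a covariate. For KO minus FL, 0 of 33321 regions passed in either direction (0%), and so 0 of the 1746 dense-stretch regions tested. At an unadjusted p under 0.05, 97 were higher (5.56%, against 5.04% of all) and 73 lower (4.18%, against 4.37%). For 4S-A minus FL, 0 passed again (0%). At an unadjusted p under 0.05, 77 were higher (4.41%, against 4.80%) and 106 lower (6.07%, against 5.33%). The median difference was −0.03 in both comparisons, against −0.01 over all regions. These shares were near the background. Both comparisons share the FL libraries. On simulated shifts in KO, the same fit recovered 37.0% of regions shifted by 1 score unit and 74.0% of those shifted by 2. The simulated noise came from pairs of libraries of the same group and set. No set effect was simulated, and every KO library had the same shift. Recovery in the real libraries may be lower, so differences of either size can be missed.

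Mean scores of whole stretches were tested the same way over all 15130 stretches of any size with a scored region, a unit added after the data had been seen. None passed for KO minus FL (0% in each direction). For 4S-A minus FL, 7 were higher (0.0463%) and 9 lower (0.0595%), and none of them was among the 276. The smallest adjusted limma p among the 276 was 0.327 for KO and 0.140 for 4S-A. At an unadjusted p under 0.05, the 276 held 1 higher stretch for KO, the chr14 gene-free one (0.362%, against 5.96% of all), and 1 lower, Dock2 (0.362%, against 4.53%). For 4S-A they held 1 higher (0.362%, against 5.44%) and 3 lower (1.09%, against 6.09%). Stretches of different size average different numbers of regions, so these shares are not read against each other. The chr14 stretch, the densest at 4.10 regions per 10 kb, had a score difference of 0.59 for KO and 0.84 for 4S-A, from the 2 of its 7 regions that all libraries held. Dock2 had −0.53 for KO, also from 2 regions. Rasgrf1 had −0.80 for 4S-A.

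The regions next to Mef2c in order of p were picked after their values were seen, and none passed. In Fry, a region at chr5:150146066-150146975 was at 2.71 and 0.757 in 4S-A and 22.4, 46.4 and 70.1 in FL (difference −2.42, SE 0.33, adjusted limma p 0.0685). Near Fos, the AP-1 subunit gene, a region at chr12:85446832-85447504 was at 83.2 and 72.4 in 4S-A, 49.6, 52.2 and 26.6 in KO, and 41.5, 32.6 and 40.5 in FL (4S-A minus FL 1.82, SE 0.30, adjusted limma p 0.0992). In Rreb1, a RAS-responsive factor gene, a region was at 75.7 and 76.7 in 4S-A, against 21.5, 33.0 and 50.9 in FL. Near Tmsb10, a thymosin gene, one was at 68.0, 78.3 and 73.8 in KO, against 31.9, 40.5 and 55.8 in FL (0.99, SE 0.15, adjusted limma p 0.280). The 4S-A values did not overlap those of FL in Fry, near Fos and in Rreb1, nor did the KO values near Tmsb10, while KO and FL overlapped near Fos.

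Percentiles were next set beside those of other distal regions in the same list. The median percentile of dense-stretch regions was 65.1, 72.0 and 74.5 in KO 1, KO 2 and KO 3, 75.1 and 73.8 in the 4S-A libraries, and 60.2, 62.6 and 73.5 in FL 1, FL 2 and FL 3. Set against the other distal regions of the same list, the difference was 3.26, 2.41 and −0.25 in KO, −1.73 and −0.88 in 4S-A, and 5.53, 5.04 and −1.32 in FL. It was positive in the 4 libraries of set A and negative in the 4 of set B. Among the strongest 10% of each list's peaks were 7.13%, 11.4% and 12.6% of dense-stretch regions in KO and 13.3% and 11.6% in 4S-A, against 6.99%, 10.4% and 14.8% and 18.0% and 15.7% of the other distal regions. The FL controls had 5.81%, 6.31% and 12.6%, against 5.04%, 5.51% and 14.9%.

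**Figure D5:**
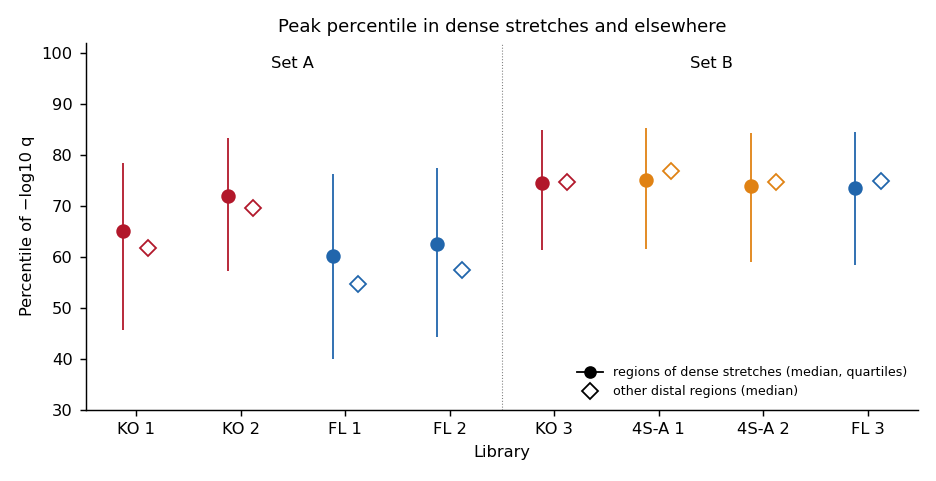
Percentile of −log10 q within the library's own list (vertical axis) in the KO, 4S-A and FL libraries of set A and set B (horizontal axis): median (filled circle) and quartiles (line) for regions of dense stretches, median (open diamond) for other distal regions. Dense-stretch medians were above the others in KO 1, KO 2, FL 1 and FL 2 and below them in KO 3, both 4S-A libraries and FL 3.

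The stretch around Mir223 (chrX:96217804-96246246), whose seed is shown above, kept 4, 5 and 6 of 6 regions in KO and all 6 in 4S-A. Its median percentile over the regions held was 72.0, 72.5 and 71.8 in KO, 75.3 and 74.7 in 4S-A, and 52.0, 58.8 and 58.1 in FL, with no overlap between FL and the others. These medians run over fewer regions in KO 1 and KO 2, and the score difference over the 4 regions of all libraries was −0.30 for KO and 0.19 for 4S-A. The KO difference thus took the other sign on the shared regions.

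The spans of the dense stretches also held 1048 union regions that the rule did not take because at least 1 control lacked them. Of these, 205, 377 and 674 were in KO 1, KO 2 and KO 3, 707 and 633 in the 4S-A libraries, and 142, 131 and 570 in FL 1, FL 2 and FL 3. Per 1000 peaks of the list this was 3.64, 5.09 and 7.24 in KO, 6.76 and 6.68 in 4S-A, and 2.76, 2.39 and 6.22 in FL.

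Held by all 3 KO libraries and by no control were 5 regions in these spans, 0.248% of the 2019 regions that all KO libraries held there, against 0.754% over the genome. One of them lay near Runx1 (chr16:92868502-92868864), at 9.25, 35.5 and 27.0 in KO, and was in neither 4S-A library. Others were near Osbpl3, near Tmed10 in the Fos stretch, and at a site with no gene within 100 kb. Held by both 4S-A libraries and by no control were 122 regions, 4.77% of 2558, against 15.2% over the genome. The strongest was near Rbm38, an RNA-binding protein gene (chr2:173044223-173044913), at 63.5 and 61.8. Spans were chosen for control-held regions, so both shares are low by the rule.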

How the data were processed

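The 8 deposited lists are MACS2 narrowPeak files of mm10 coordinates, 1 per library, from ATAC-seq of sorted L-GMPs amplified for 13 to 16 PCR cycles, per the labels. Trim Galore 0.4.4, Bowtie2 2.2.9, Picard and featureCounts are also named, per the submitters' processing notes; which step used which, and any filter, is not given in the sources used here. Each deposited file gives a score per peak, a signal value that is a fold enrichment, and −log10 of the p-value and q-value, as the authors' caller wrote them. Only the position, summit and −log10 q were used; the lowest −log10 q in a list was between 1.30 and 1.41. A q-value grows with depth and the lists hold no read counts, so percentiles rank peaks within 1 list. They still depend on list length, since added weak peaks raise the percentile of stronger ones. The median percentile of dense-stretch regions was 60.2 in FL 1, the shortest list, and 75.1 in 4S-A 1, the longest. Differences of percentiles between libraries may therefore hold differences of list length or depth, which were not separated.

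Regions were merged, assigned to the nearest gene of RefSeq on GRCm38.p6 within 100 kb and stitched with Python 3.11.15, numpy 2.4.6 and pandas 2.3.3; the regions and lists were chosen with earlier results of these data known. Normal scores were fitted with limma 3.58.1 in R 4.3.3, with Benjamini-Hochberg adjustment over all 33321 regions and a threshold of 0.05, and the fit was tested on simulated data. Deviations of same-numbered FL and KO libraries correlated at 0.22, 0.26 and 0.53, which met the rule fixed for treating the numbers as pairs. Peak names inside some lists carry other replicate numbers than the labels, so which libraries share a number is uncertain. FL 1 with KO 2 and FL 2 with KO 1 correlated at 0.24 each, and pairs across sets A and B at −0.34 to −0.37. The values thus do not tell pairing by number from membership of the same set. The genes named are the nearest genes of the 20 stretches with the most regions, the 8 kept least by KO and by 4S-A, up to 10 regions missing from all libraries of a group by control percentile, up to 10 regions called per rank test, up to 4 genes per gene list, and Dek, Pbx3, Hoxa9, Meis1 and Myc. Others, such as genes of promoter windows, microRNAs, the strongest stretches and uncalled ranks, were chosen after their values were seen. Alternatives covered the stitching distance, the number of regions, the distance to genes, the q threshold, the overlap, list length and each library left out. Motifs within the peaks were not analysed, as no genome sequence was used here. Some items that the rule for named genes covers are not reported here.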

Additional observations from a re-analysis of the deposited data

Results flagged for a closer look

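The KO minus FL difference in the place of dense-stretch regions within a list had opposite signs in the 2 sets of libraries, KO 1, KO 2, FL 1 and FL 2 (set A) and KO 3, 4S-A 1, 4S-A 2 and FL 3 (set B). The measure is the median percentile of dense-stretch regions minus that of other distal regions. In set A it averaged 2.83 in KO 1 and KO 2, against 5.29 in FL 1 and FL 2, a difference of −2.45. In set B it was −0.250 in KO 3, against −1.32 in FL 3, a difference of 1.07. Among the regions held by all 8 libraries, the same differences were −2.80 (4.40 in KO, against 7.2 in FL) in set A and 0.900 (−1.10 in KO 3, against −2.0 in FL 3) in set B. Every KO library of one set lay below its controls and the KO library of the other set above its control. This difference was not tested; set B has 1 KO and 1 FL library. For single regions, the limma test of the difference between sets called 0 of 33321. Its unadjusted p was under 0.05 in 157 of 1746 dense-stretch regions (8.99%), against 3418 of all 33321. The share among dense-stretch regions was thus no higher than among all regions, and their smallest adjusted limma p was 0.121. List length differed between KO and FL libraries of set A (56245 and 74026, against 51510 and 54887 peaks), and its part in the result was not tested.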

How the results depend on the processing

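Of 139 alternative values, 95 stayed near those reported and 44 moved. The size of the set follows the rule. Stitching at 5 kb gave 16 stretches and 104 regions, with 93.3% kept in 4S-A, below the 95.8% of other distal regions, where the reported 96.4% was above their 95.7%; 0 regions were missing from all KO and 5 (4.81%) from both 4S-A, against 0.214% and 2.26% of control-held regions. Stitching at 25 kb gave 888 stretches and 7505 regions, with 21 (0.280%) and 165 (2.2%) missing, against the same 0.214% and 2.26%. A minimum of 5 regions gave 526 stretches and 3263 regions, with 62 (1.90%) missing from both 4S-A, and 8 regions gave 93 and 851, with 2 (0.235%) and 20 (2.35%) missing, against the same. Equal-length lists gave 181 stretches and 1302 regions, with 90.5% kept in 4S-A, against 88.2% of other distal regions, and 93 (7.14%) missing from both, against 7.01%. Requiring a peak to cover at least 50% of a region gave 22 stretches and 150 regions, with 94.0% kept in 4S-A, against 91.3%, and 1 (0.667%) and 6 (4.00%) missing, against 0.369% and 4.43%. The share missing from both 4S-A, above that of control-held regions as reported, was thus below it at 25 kb, at 5 regions and at this coverage, and also without FL 1 (3.07%, against 3.49%) and FL 2 (2.94%, against 3.05%). The share missing from all KO, also above as reported, was below at 5 kb, with equal lists (0.538%, against 0.563%) and without FL 2 (0.311%, against 0.627%) or FL 3 (0.590%, against 0.715%). With a control left out of the rule and equal lists, 4S-A kept 89.2%, 89.4% and 81.6% without FL 1, FL 2 and FL 3, against 85.8%, 86.2% and 80.2% of other distal regions, and KO kept 89.1% without FL 3, against 88.0%. Leaving out each library in turn gave 276 to 483 stretches, 2013 to 3618 regions, 92.9 to 98.4% kept in KO, 94.7 to 96.9% in 4S-A, 6 to 32 regions missing from all KO, 51 to 111 missing from both 4S-A, and 0 to 0 rank calls. A replicate block called 0 dense-stretch regions and changed no call; its smallest adjusted limma p was 0.746. Over all regions, rank calls were 7 higher and 3 lower for 4S-A with equal lists, 2 higher for KO and 7 higher and 1 lower for 4S-A without FL 3, and 2 higher for KO without KO 3, against 0 as reported; the cause was not tested. No rank test was run with a stricter q threshold. The lists hold no read depth, so a missing peak does not show that a region is closed.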
